A study of Homo sapiens with 21 samples.

Results

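The genes described here are the human ZNF genes that lie outside chromosome 19, followed through 7 treatments of Hs578T cells. A row of the count table belonged to them when the symbol of its NCBI gene identifier was ZNF followed by a number and at most 1 letter, and when the gene lay on any other chromosome. The rule used names and positions only, and no measured value. It gave 274 of the 28395 genes in the table, 261 of them protein-coding and 13 pseudogenes, on 20 chromosomes. Chromosome 7 held 38, chromosome 16 held 30, chromosome 1 held 20, and chromosomes 3 and 8 held 19 each. Chromosome 19 held another 254 ZNF genes, which serve here as the closest comparison.

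Hs578T is a wild-type human triple-negative breast cancer (TNBC) line. Cells received DMSO, THZ531 at 0.1 μM, lapatinib at 3.16 μM, nilotinib at 1 μM, lapatinib at 3.16 μM with THZ531 at 0.1 μM, nilotinib at 1 μM with THZ531 at 0.1 μM, or THZ531 at 1 μM, for 8 h. THZ531 is a covalent inhibitor of the paired kinases CDK12 and CDK13, which act on the tail of RNA polymerase II and keep it elongating through genes. Lapatinib inhibits EGFR and HER2, and nilotinib inhibits BCR-ABL. The study asked how THZ531 and kinase inhibitors act together, and the 2 groups given both are called the lapatinib combination and the nilotinib combination below. Each group held 3 libraries of polyA-selected RNA, 21 in all, and all came from this single line.

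Most ZNF proteins bind DNA through tandem C2H2 zinc fingers, each folded around a zinc ion held by a pair of cysteines and a pair of histidines. Many also carry a KRAB box at the N terminus, which recruits the corepressor TRIM28 and with it the histone methyltransferase SETDB1 and heterochromatin protein 1, and which is best known for silencing transposable elements. A smaller group carries a SCAN domain, which pairs these proteins with each other, and some ZNF proteins do not bind DNA at all but act on RNA, ribosomes or the spindle. A KRAB box was found by pattern in 115 of the 260 members with a protein-coding reference transcript and was not found in 145. Only that transcript was searched and a pattern can miss a box, so members described below as without the box may still carry one. C2H2 patterns per protein ran from 0 to 36 with a median of 9. Members span 0.966 to 960.546 kb of genome, 147 of them overlap another annotated gene, and 136 have another zinc finger gene within 100 kb.

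The promoters of 4 members that moved far with the lapatinib combination are shown as examples, and their part in the values that follow was not tested. They are the 3 largest falls and the largest rise among members of mean log2 CPM of at least 1 whose libraries did not overlap DMSO, and some members of lower level moved further. Each line is the 150 bases before a listed RefSeq start site of the gene (GRCh38.p14), read 5′ to 3′ on the gene's own strand. Capitals mark any of 4 short motifs searched on both strands, namely the GC box with the letters GGGCGG, the ETS motif with CCGGAAG, the TATA box with TATAAA and the YY1 motif with ATGGCG. Where 2 GC boxes overlap they appear as 1 run of capitals. For ZNF839 and ZNF652, which have 2 starts listed each, the first was used. The first 3 lines belong to genes that fell and the last to a gene that rose.
ZNF609, chr15:64460428-64460577, plus strand: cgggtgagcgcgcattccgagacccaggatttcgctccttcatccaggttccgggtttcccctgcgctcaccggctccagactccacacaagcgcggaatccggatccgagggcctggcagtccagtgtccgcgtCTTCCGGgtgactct
ZNF839, chr14:102319596-102319745, plus strand: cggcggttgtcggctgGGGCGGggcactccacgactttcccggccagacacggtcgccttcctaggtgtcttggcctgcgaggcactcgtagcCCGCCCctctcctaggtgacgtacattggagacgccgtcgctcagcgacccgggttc
ZNF189, chr9:101398701-101398850, plus strand: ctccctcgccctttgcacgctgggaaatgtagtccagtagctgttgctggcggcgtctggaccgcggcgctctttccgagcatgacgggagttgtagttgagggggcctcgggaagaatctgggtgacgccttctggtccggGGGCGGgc
ZNF652, chr17:49362251-49362400, minus strand: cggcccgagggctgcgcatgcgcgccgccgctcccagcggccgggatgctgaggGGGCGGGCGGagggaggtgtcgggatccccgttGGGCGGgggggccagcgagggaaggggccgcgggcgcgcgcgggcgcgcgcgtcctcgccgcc

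None of the 4 holds TATAAA. GC content was 64.67% in the printed stretches of ZNF609 and ZNF189, 68.0% in ZNF839 and 84.0% in ZNF652. The ZNF609 stretch lies within the non-coding gene LOC105370861, and the ZNF652 stretch overlaps its antisense gene ZNF652-AS1. Both stretches also lie inside the annotated span of their own gene. That span begins at chr15:64459578 for ZNF609 and, on the minus strand, at chr17:49362473 for ZNF652, so these stretches are not upstream of the whole gene. Over 250 bases before the start, 212 members had a promoter in the reference table, and 59 of them (27.83%) held the ETS motif on either strand. The same letters stood in 14.52% of the 12271 promoters of genes tested and in 8.815% of all 27305 promoters. Members that fell with the lapatinib combination by over 1 on the log2 scale and the other tested members held it in 29.91% of 107 and 26.83% of 82 promoters. Of the 189 tested members with a promoter in the reference table, 28.57% held the ETS motif. The GC box stood in 59.26% of these tested members against 63.87% of genes tested, TATAAA in 4.233% against 6.185% and the YY1 motif in 11.11% against 8.972%. A match describes the letters in this window only.

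Libraries held 97612207 to 112229052 counts. The mesenchymal markers VIM, FN1, SPARC, CD44 and AXL summed to 12670 to 20008 counts-per-million (CPM) per library, the 6 epithelial and luminal markers to 8.81 to 22.2 CPM, EPCAM and PGR had at most 10 and 4 counts in any library, and the leukocyte gene PTPRC stayed between 0.774 and 2.45 CPM. The mesenchymal sum was 13158 to 14440 CPM in DMSO and 17849 to 20008 CPM with the 3 strong treatments defined below, and the epithelial and luminal sum, mostly GATA3, was 17.9 to 20.1 CPM in DMSO and 8.81 to 19.3 CPM. PTPRC was higher with the 3 strong treatments (group means 1.76, 1.86 and 2.33 CPM against 1.05 CPM in DMSO), and the part of these markers in the results was not tested. Among the libraries of 1 μM THZ531, replicate 2 had the lowest summed level of the members, 1872 CPM against 2352 and 2279 CPM in the other two.

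Of the 274 members, 235 passed the filter on low counts and were tested with the other genes, 16036 in all. Members not tested numbered 39, with at most 14 counts in any library, and 9 of these had 0 counts throughout, which allows no statement on them. Untreated levels alone would have passed 229 members. The remaining 6 (ZNF140, ZNF385B, ZNF467, ZNF474, ZNF475 and ZNF736) did not reach the cutoff in every DMSO library. Libraries of other groups were needed for them to be tested. Some missed narrowly, such as ZNF385B with 19, 22 and 10 counts in DMSO and ZNF467 with 21, 9 and 18. In DMSO, mean levels of tested members ran from 0.0592 to 235.6 CPM with a median of 7.18 CPM, against a median of 13.8 CPM over all genes tested and 3.39 CPM over the 220 tested ZNF genes of chromosome 19. Per kilobase of transcript, the highest DMSO levels were those of ZNF593, a ribosome assembly factor (57.1 CPM per kb), ZNF664 (27.2), ZNF410, a regulator of the chromatin remodeller gene CHD4 (26.2), and ZNF511 (26.1).

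The 3 strong treatments, the combinations and 1 μM THZ531, lowered the RNA of most tested members, while lapatinib or nilotinib alone called none of them. Summed over all members, the level was 3709 to 3851 CPM in the DMSO libraries, 2345 to 2726 CPM with the lapatinib combination, 2290 to 2706 CPM with the nilotinib combination and 1872 to 2352 CPM with 1 μM THZ531. No library of a strong treatment reached the lowest DMSO library. With 0.1 μM THZ531 the sum was 3743 to 3811 CPM, with lapatinib 3627 to 3805 CPM and with nilotinib 3502 to 3686 CPM. In such bulk RNA, fewer cells and less RNA per cell cannot be told apart, and every level is relative to the other genes of the library.

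A member was called when the adjusted p of the edgeR test, quasi-likelihood with the Benjamini-Hochberg method, was under 0.05, and calls were counted both with a log2 fold change (log2 FC) beyond 1 and without that limit. With the limit, the lapatinib combination lowered 134 of the 235 tested members and raised 4. Over all genes tested, 21.3% were lower and 7.9% higher by the same rule, against 57.0% and 1.70% of the members. The nilotinib combination lowered 137 and raised 3, beside 20.8% and 6.54% of all genes. With 1 μM THZ531, 139 were lower and 2 higher, beside 18.9% and 5.77% of all genes. The median log2 FC of the tested members was −1.35, −1.40 and −1.31 in that order, and the median of all genes tested was −0.01 in each. Without the limit on fold change, 175, 174 and 185 members were lower and 24, 18 and 7 higher, where 37.8%, 37.3% and 36.8% of all genes were lower and 34.3%, 33.7% and 33.1% higher. All 3 treated libraries lay below all 3 DMSO libraries for 180 members with the lapatinib combination (38.6% of all genes), 178 with the nilotinib combination (38.3%) and 185 with 1 μM THZ531 (37.8%).

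The direction of this shift did not depend on the scaling, but its size did. Scaling by the 13 mRNAs of the mitochondrial genome moved the median of all genes to −0.69, −0.63 and −0.55 in the 3 strong treatments, and library size alone moved it to −0.34, −0.31 and −0.27. The members' median stayed 1.3 to 1.39 below that of all genes under each of the 5 scalings. Of the members called with the lapatinib combination, 87.9% were lower with the main scaling and 98.6% (208 lower, 3 higher) with the mitochondrial one. The ZNF genes of chromosome 19 had medians of −1.79, −1.86 and −1.64, and 72.7%, 72.7% and 73.6% of them were lower by over 1 on the log2 scale. They were also expressed at lower levels than the members, and the difference between the groups of genes was not tested.

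ZNF609, a coregulator that binds the cohesin loader NIPBL, fell furthest among members of at least 1 mean log2 CPM with both combinations. It lies at chr15:64459578-64686068 (GRCh38.p14) and its span holds LOC105370861 and other annotated genes, pseudogenes among them. Its DMSO libraries held 27.8, 37.6 and 28.6 CPM. With the lapatinib combination it was at 0.645, 1.19 and 1.20 CPM, and with the nilotinib combination at 0.951, 1.42 and 1.90 CPM. With 1 μM THZ531 it was at 5.91, 3.47 and 4.61 CPM. The low libraries thus lay apart from DMSO in all 3 treatments, and the libraries of both combinations lay below those of 1 μM THZ531. The log2 FC was −4.95 ± 0.29 (SE, n = 3 per group, edgeR adjusted p = 5.94e-12) with the lapatinib combination, −4.46 ± 0.28 with the nilotinib combination and −2.75 ± 0.25 with 1 μM THZ531. With 0.1 μM THZ531 it stood at 24, 29.4 and 30.8 CPM, with lapatinib at 22, 32.6 and 31.4 CPM and with nilotinib at 19.1, 28.3 and 30.5 CPM, and these groups overlapped DMSO.

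ZNF839, on chromosome 14 with no overlapping gene, followed the same order. DMSO libraries held 9.62, 10.4 and 10.9 CPM, those of the lapatinib combination 0.557, 0.678 and 0.312 CPM, those of the nilotinib combination 0.562, 0.605 and 0.385 CPM, and those of 1 μM THZ531 1.20, 1.26 and 1.08 CPM. Its mean was 5.02% of DMSO with the lapatinib combination, 5.03% with the nilotinib combination and 11.5% with 1 μM THZ531. It was also lower with 0.1 μM THZ531, at 6.88, 6.49 and 7.25 CPM, below all DMSO libraries.

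ZNF189, a KRAB member on chromosome 9 with 16 C2H2 patterns, went from 17.4, 17.0 and 18.4 CPM in DMSO to 1.66, 1.63 and 1.56 CPM with the lapatinib combination, 1.32, 1.67 and 1.26 CPM with the nilotinib combination and 2.26, 2.60 and 2.22 CPM with 1 μM THZ531. Its log2 FC with the lapatinib combination was −3.44 ± 0.10 (edgeR adjusted p = 4.14e-16). ZNF200, a member on chromosome 16 in which no KRAB box was found, went from 11.1, 9.75 and 11.1 CPM to 1.31, 1.06 and 1.26, to 0.735, 0.583 and 1.12, and to 1.56, 0.964 and 1.91 CPM in the same order. Both genes were thus low in every library of the strong treatments, and their group means stood at 7.64% to 13.9% of the DMSO mean.

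The other leading falls were of a similar size. The KRAB member ZNF41 on the X chromosome fell by 3.38 and 3.21 on the log2 scale with the lapatinib and nilotinib combinations, from 7.19, 6.49 and 6.53 CPM in DMSO to 0.635 to 0.657 CPM and 0.454 to 0.902 CPM. ZNF212, a KRAB member on chromosome 7, fell by 3.26 with the lapatinib combination, from 8.75, 9.15 and 9.65 CPM to 0.918, 1.06 and 0.891 CPM. ZNF691 fell by 3.27 with the nilotinib combination, to 0.540, 0.562 and 0.539 CPM. ZNF34, a KRAB member, fell by 2.70 with 1 μM THZ531, to 1.18, 0.744 and 0.770 CPM. These falls passed the edgeR test, with adjusted p from 5.90e-12 to 4.44e-14, and no treated library overlapped DMSO.

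**Figure D1:**
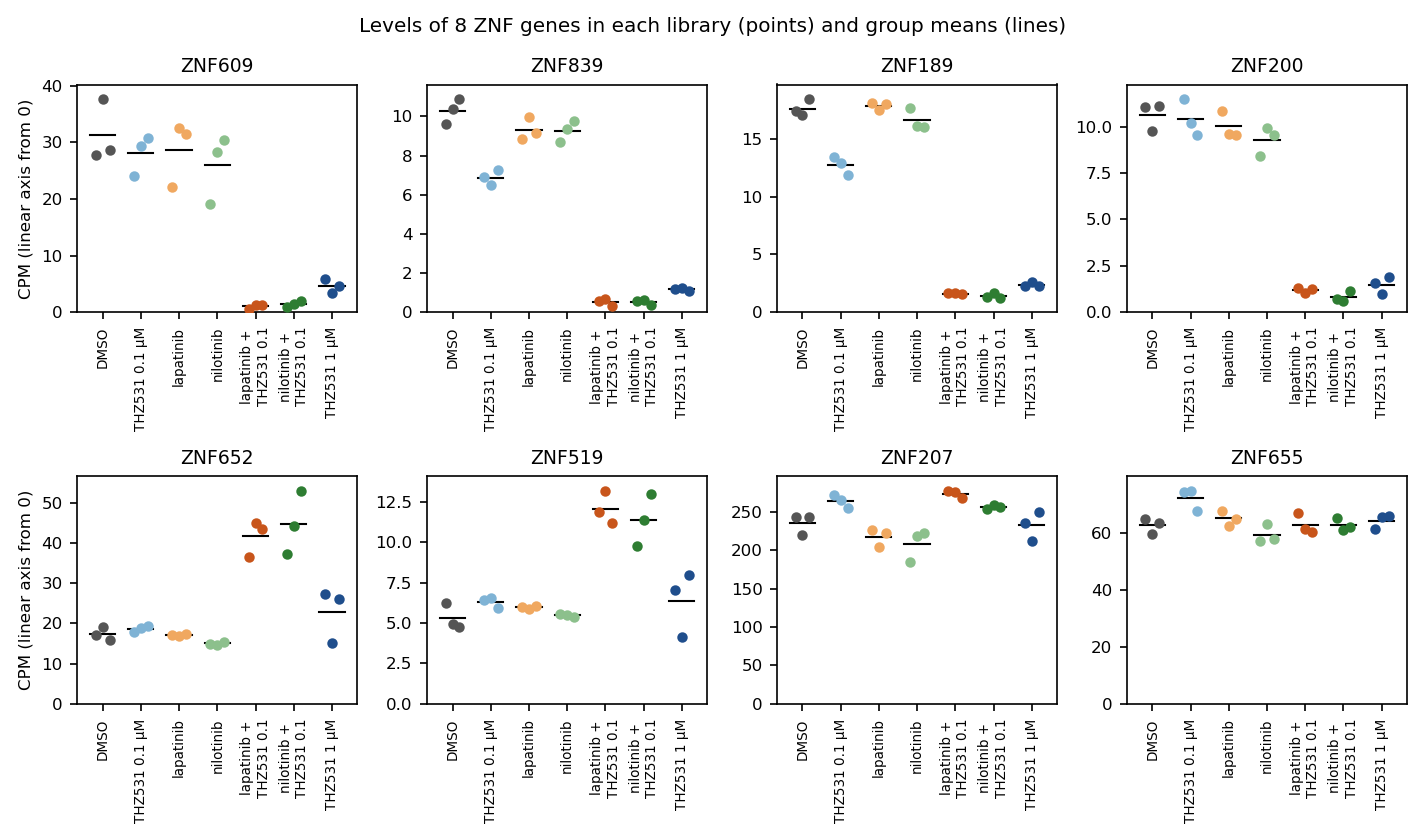
CPM (y axis, linear from 0) of 8 ZNF genes in each of 21 libraries, with a line at each group mean. ZNF609, ZNF839, ZNF189 and ZNF200 are near 0 in the 3 strong treatments, ZNF652 and ZNF519 are higher in both combinations than in every other group, and ZNF207 and ZNF655 stay at similar levels.

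A few members rose with the combinations. ZNF652, a DNA-binding repressor that works with the corepressor CBFA2T3, stood at 17.2, 19 and 15.9 CPM in DMSO and at 36.5, 44.9 and 43.6 CPM with the lapatinib combination and 37.2, 44.2 and 53.0 CPM with the nilotinib combination. Its log2 FC was 1.26 ± 0.16 (adjusted p = 5.26e-07, edgeR) and 1.37 ± 0.16. With 1 μM THZ531 its libraries were at 27.3, 15.1 and 26.0 CPM, so that 1 of 3 lay below the DMSO libraries. Its span holds the antisense gene ZNF652-AS1 and the libraries do not mark strand, so reads of the pair cannot be told apart.

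ZNF519, a KRAB member on chromosome 18, rose from 6.26, 4.94 and 4.72 CPM to 11.9, 13.2 and 11.2 CPM and to 9.79, 11.4 and 13.0 CPM, by 1.19 and 1.10 on the log2 scale. ZNF263, a SCAN domain repressor, rose by 0.92 and 0.80, ZNF236 by 0.90 and 0.96, and ZNF512 and ZNF26 by 0.84 and 0.67 with the nilotinib combination. ZNF503 and ZNF703, related corepressors of the NET family of which the second is amplified in luminal breast cancer, rose by 0.87 and 0.78 with the lapatinib combination. All of these rises passed the edgeR test with the main scaling. With mitochondrial scaling, ZNF652 and ZNF519 kept their calls, while ZNF263, ZNF236, ZNF503, ZNF703, ZNF512 and ZNF26 had values of 0.04 to 0.34 and lost theirs.

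Beyond 1 on the log2 scale, the members raised by the lapatinib combination were ZNF467, ZNF652, ZNF475 and ZNF519, those raised by the nilotinib combination were ZNF652, ZNF467 and ZNF519, and those raised by 1 μM THZ531 were ZNF467 and ZNF385C. ZNF467, ZNF475 and ZNF385C were named after their values were seen. ZNF467 and ZNF475 needed libraries of groups other than DMSO to pass the filter. Both were low throughout, with ZNF467 at a mean of 0.133 CPM in DMSO and 0.621 CPM with the lapatinib combination. With 1 μM THZ531, the rises that met the rule for named genes were ZNF219, at 5.98, 7.03 and 6.41 CPM in DMSO and 9.24, 11 and 9.77 CPM, and ZNF664, at 120, 114 and 117 CPM in DMSO and 181, 176 and 166 CPM. With the lapatinib combination they stood at 8.89 to 10.1 CPM and 167 to 179 CPM. Under mitochondrial scaling their rises with 1 μM THZ531 shrank to 0.10 and 0.02 and were not called. ZNF219 overlaps ARHGEF40 and TMEM253, and ZNF664 a read-through gene with RFLNA.

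With the main scaling, 8 members stayed within 0.25 of 0 on the log2 scale with all 3 strong treatments. The 4 with the highest mean level were ZNF207, the spindle protein that delivers BUB3 to kinetochores, ZNF655, ZNF598, a ubiquitin ligase of stalled ribosomes, and ZNF511. ZNF207 stood at 243, 220 and 243 CPM in DMSO, 277, 275 and 268 CPM with the lapatinib combination, 254, 258 and 256 CPM with the nilotinib combination and 236, 212 and 250 CPM with 1 μM THZ531. Its small rise with the lapatinib combination was called (log2 FC 0.22 ± 0.07, edgeR adjusted p = 0.011). ZNF655 was at 59.6 to 64.9 CPM in DMSO and 60.2 to 66.9 CPM over the 9 libraries of the strong treatments. This holds relative to the other genes of each library. With mitochondrial scaling ZNF207 had log2 FC of −0.47, −0.51 and −0.56 and ZNF655 of −0.68, −0.62 and −0.50 in the 3 strong treatments, all called, so the rise of ZNF207 turned into a fall.

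Among the members with known roles in chromatin and transcription, 11 of 18 were lower beyond 1 on the log2 scale with the lapatinib combination, 11 with the nilotinib combination and 15 with 1 μM THZ531, beside 21.3%, 20.8% and 18.9% of all genes. Without the fold limit 16, 15 and 16 were lower, beside 37.8%, 37.3% and 36.8% of all genes. The median log2 FC was −1.56, −1.53 and −1.52. This list and the other lists of genes below were chosen with earlier results of these data known. ZNF143, an activator at many housekeeping promoters, had mean levels of 20.2 CPM in DMSO and 4.76, 5.21 and 5.92 CPM with the strong treatments, and its paralogue ZNF76 went from 11 to 2.08, 2.41 and 2.68 CPM. ZNF518A and ZNF518B, partners of the histone methyltransferases G9a and GLP, fell by 2.72 and 4.62 with the lapatinib combination. ZNF518B was itself low, at 1.57 CPM in DMSO. ZNF217, a CoREST-associated oncoprotein amplified in breast cancer, had the smaller change of −0.78 ± 0.24 with that combination and −1.21 ± 0.24 with 1 μM THZ531.

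Within the related ZNF687, ZNF592 and ZNF532, which bind one another in a complex with ZMYND8, the 3 genes moved in different ways. ZNF687 went from 30.9 CPM in DMSO to 7.75, 7.53 and 8.21 CPM. ZNF592 went from 35.9 CPM to 52.2 and 52.3 CPM with the combinations, a rise of 0.54 in each, and stood at 37.8 CPM with 1 μM THZ531. With mitochondrial scaling the 2 values turned to −0.14 and −0.08 and were not called. ZNF532 was not called, with log2 FC of −0.39 ± 0.19, −0.31 ± 0.19 and 0.14 ± 0.19.

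The 12 members with roles in RNA, ribosomes or the spindle had medians closer to 0, at −0.22, −0.34 and −0.26. This list too was chosen with earlier results known, and its difference from the chromatin and transcription list was not tested. Beyond 1 on the log2 scale, 4, 4 and 3 were lower in the 3 strong treatments (33.3%, 33.3% and 25%) and 0 higher in each. By the same rule 21.3%, 20.8% and 18.9% of all genes were lower and 7.9%, 6.54% and 5.77% higher. Without the fold limit 6 of 12 were lower and 4 higher with the lapatinib combination (37.8% and 34.3% of all genes), 6 and 3 with the nilotinib combination (37.3% and 33.7%), and 5 and 0 with 1 μM THZ531 (36.8% and 33.1%). The ribosome assembly factors ZNF593 and ZNF622 and the nucleolar ZNF330 were higher with both combinations, by 0.42, 0.38 and 0.64 with lapatinib and 0.24, 0.38 and 0.51 with nilotinib, and were not called with 1 μM THZ531 (−0.11, −0.18 and −0.01). These rises depended on the scaling. With mitochondrial mRNAs the lapatinib combination gave −0.27, −0.30 and −0.04 for the 3 genes and the nilotinib combination −0.38, −0.24 and −0.11, of which the −0.38 of ZNF593 was called. ZNF346, which binds double-stranded RNA, ZNF638, an RNA-binding splicing regulator, and ZNF830, a splicing factor, fell by 2.39, 2.27 and 1.73 with the lapatinib combination. ZNF385B, at a mean of 0.143 CPM in DMSO, was not called, with log2 FC of 0.30 ± 0.59, −0.25 ± 0.62 and −0.34 ± 0.62 (SE).

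**Figure D2:**
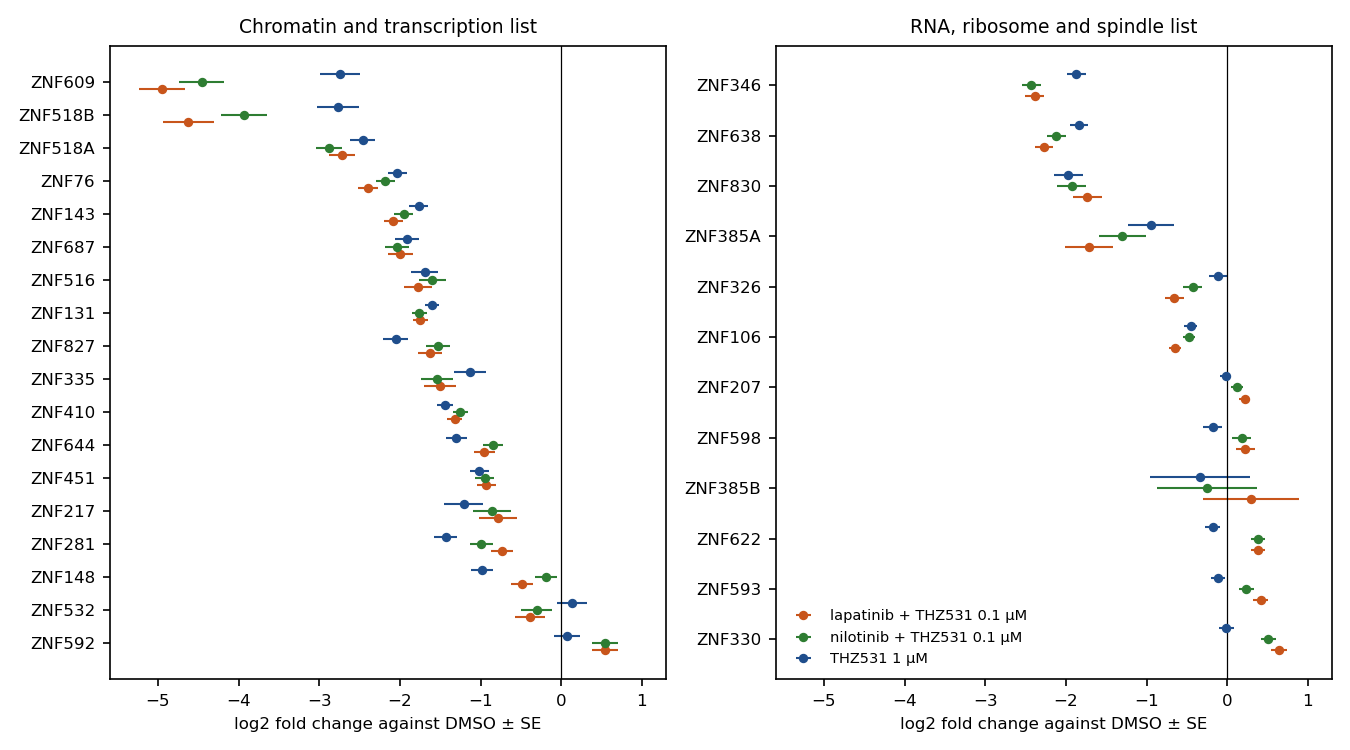
Log2 fold change against DMSO with its standard error (x axis) for the 18 chromatin and transcription members and the 12 RNA, ribosome and spindle members, in the 2 combinations and with 1 μM THZ531. Most chromatin members lie below −0.5, ZNF592 lies above 0 in the combinations, and ZNF593, ZNF622 and ZNF330 lie above 0 in the combinations and near 0 with 1 μM THZ531 with the main scaling, while mitochondrial scaling puts all 4 below 0.

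Of the 20 tested SCAN domain members, 14, 15 and 15 were lower beyond 1 on the log2 scale in the 3 strong treatments, beside 21.3%, 20.8% and 18.9% of all genes, and 17 in each without the fold limit, beside 37.8%, 37.3% and 36.8%. Their medians were −1.53, −1.59 and −1.57, and ZNF263 was the one that rose with either combination, a call lost with mitochondrial scaling. ZNF500 fell by 2.90 with the lapatinib combination, from 3.92 to 0.524 CPM on average, and ZNF232 fell by 2.53. ZNF213 and ZNF165 differed from DMSO by at most 0.25 on the log2 scale. Of the 11 tested members known from development and disease, 4 (36.4%) were lower beyond 1 in each strong treatment and 0 higher. Of all genes 21.3%, 20.8% and 18.9% were lower by that rule and 7.9%, 6.54% and 5.77% higher. Without the fold limit 5, 5 and 7 were lower and 2, 2 and 0 higher, where 37.8%, 37.3% and 36.8% of all genes were lower and 34.3%, 33.7% and 33.1% higher. ZNF503 and ZNF703 were the risers, while ZNF423, a partner of EBF and SMAD factors, had log2 FC of −0.82, −0.78 and −0.26, of which the first 2 were called.

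Members in which the pattern found a KRAB box had lower medians than those in which it found none. The medians were −1.73, −1.77 and −1.43 over 95 genes against −0.95, −0.98 and −1.18 over 131. Beyond 1 on the log2 scale, 66, 68 and 64 of the 95 KRAB members were lower and 1, 1 and 0 higher. Of the 131 without the box, 63, 64 and 71 were lower and 2 higher in each. Of all genes 21.3%, 20.8% and 18.9% were lower and 7.9%, 6.54% and 5.77% higher. KRAB members were also expressed at lower levels, with a median of 5.81 CPM in DMSO against 11.7 CPM, and the medians followed the level. In 4 equal groups by mean level over all 21 libraries, the members' medians with the lapatinib combination were −2.07 in the lowest, −1.62 and −1.46 in the middle groups and −0.55 in the highest. With 1 μM THZ531 they were −1.65, −1.41, −1.40 and −0.88. Within the middle groups, KRAB members had medians of −1.55 and −1.34 with the lapatinib combination and members without the box −1.65 and −1.56, so the order was the opposite of that over all members. In the lowest group the medians were −2.44 (23 genes) and −1.69 (30 genes), and in the highest −0.73 (7 genes) and −0.54 (50 genes). Because the mean level includes the treated libraries, a gene that falls has a lower mean, and this part in the relation was not tested. By DMSO level alone, Spearman's rho with the log2 FC was 0.17, 0.19 and 0.04 across the 235 genes, which are not independent replicates, against 0.36, 0.38 and 0.23 by the mean over all libraries.

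**Figure D3:**
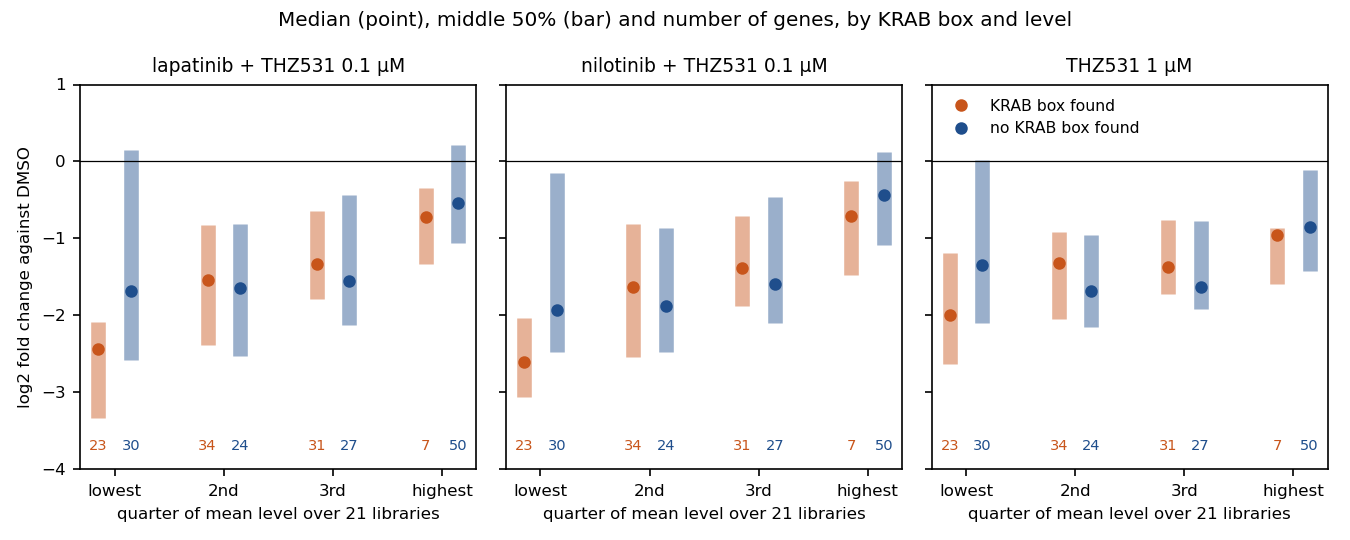
Log2 fold change against DMSO (y axis) of tested members in which a KRAB box was found and in which none was found, in 4 equal groups of mean log2 CPM over the 21 libraries, for the 3 strong treatments. Points are medians, bars the middle 50% and the numbers at the bottom count genes. Medians are lowest in the lowest group of KRAB members and nearest 0 in the highest group for both kinds.

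Across members, Spearman's rho of the log2 FC with the genomic span was 0.09, 0.14 and 0.14 in the 3 strong treatments, where over all genes it was −0.19, −0.15 and −0.16. The members with the shortest spans, 0.966 to 14.601 kb, had a median of −1.28 with the lapatinib combination, and those with the longest, 56.635 to 960.546 kb, a median of −0.90. Both lay above the −1.35 of all tested members, so the medians did not change steadily with span. The 34 tested members with 10 or more exons had medians of −0.74, −0.77 and −0.82, against −1.45, −1.68 and −1.43 for the 47 with 1 to 3 exons. Those with many exons were also the more highly expressed, with a median of 26.3 CPM in DMSO against 8.66 CPM. Members overlapping no other gene had medians of −1.57, −1.59 and −1.42 (106 genes), and members overlapping one −1.24, −1.27 and −1.21 (129 genes). The 8 tested pseudogenes had medians of −1.22, −1.69 and −0.98, and as copies of other genes they may share reads with them.

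The falls were spread over the chromosomes. With the lapatinib combination, the median log2 FC of tested members was below 0 on each of the 20 chromosomes, from −0.45 on chromosome 18 (10 genes) to −1.87 on chromosome 11 (6 genes). Chromosomes 7 and 16, with 29 tested members each, had medians of −1.37 and −1.34.

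The genes through which KRAB proteins act were called in both directions, in shares near those of all genes only without a limit on fold change. Without the fold limit, 6 of 14 tested partners were lower and 5 higher with either combination (37.8% and 34.3% of all genes with lapatinib, 37.3% and 33.7% with nilotinib), and 5 lower and 6 higher with 1 μM THZ531 (36.8% and 33.1%). Beyond 1 on the log2 scale 5, 4 and 5 were lower (35.7%, 28.6% and 35.7%) and 0 higher. By the same rule 21.3%, 20.8% and 18.9% of all genes were lower and 7.9%, 6.54% and 5.77% higher. TRIM28, which KRAB boxes bind, rose from 559 to 902, 856 and 834 CPM on average, by 0.69 ± 0.05, 0.62 ± 0.05 and 0.58 ± 0.05 on the log2 scale. The heterochromatin protein gene CBX1 and the deacetylase gene HDAC1 rose with the lapatinib combination by 0.78 and 0.83. With mitochondrial scaling the values of TRIM28, CBX1 and HDAC1 with that combination were 0.01, 0.09 and 0.15 and none was called. SETDB1 fell from 20.3 to 9.98, 10.3 and 9.49 CPM, with either scaling. MORC2 and TASOR, of the HUSH silencing pathway, fell by 3.07 and 2.37 with the lapatinib combination, and CBX5 by 1.49. MPHOSPH8 and PPHLN1, of the same pathway, had log2 FC of −0.18 and −0.09 with that combination and were not called with any strong treatment.

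With 0.1 μM THZ531 alone, 21 of the 235 members were lower and 3 higher at an adjusted p under 0.05 (edgeR), with no limit on fold change, beside 4.31% and 1.78% of all genes tested. The members' median log2 FC was −0.04, and 1 member, ZNF385A, fell by over 1, beside 0.742% of all genes. ZNF385A, an RNA-binding regulator of p53 responses, stood at 1.26, 2.29 and 1.88 CPM in DMSO and at 0.675, 0.533 and 0.999 CPM with the low dose, a log2 FC of −1.30 ± 0.29. ZNF117, which shares its locus with ERV3-1, went from 1.15, 1.58 and 0.987 CPM to 0.604, 0.655 and 0.689 CPM, and the pseudogene ZNF658B from 0.839, 0.759 and 0.808 CPM to 0.417, 0.498 and 0.371 CPM. In these 3 genes the groups did not overlap, at levels near or below 2 CPM. Among more abundant members, ZNF747 fell by 0.80, ZNF76 by 0.74 and ZNF397 by 0.72.

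The 3 members that rose with the low dose were ZNF484, a KRAB member, from 8.81, 7.76 and 9.04 to 14.1, 12.3 and 11.7 CPM, ZNF365, a centrosomal and genome stability protein, from 10.9, 9.69 and 11.1 to 15.5, 15.5 and 14 CPM, and ZNF215, a SCAN and KRAB member of the imprinted region of chromosome 11, from 9.64, 8.46 and 8.47 to 13.3, 12.3 and 11.8 CPM. Their log2 FC were 0.57 ± 0.15, 0.51 ± 0.13 and 0.50 ± 0.11. With 1 μM THZ531 the same 3 genes stood below DMSO, at 4.04, 2.53 and 4.79 CPM, 6.81, 5.07 and 7.43 CPM, and 3.47, 3.10 and 4.11 CPM. The number of low-dose calls depended on single libraries. ZNF385A lost its call without DMSO replicate 2 or low-dose replicate 1 or 2, ZNF658B without any one of the 6 libraries compared, and ZNF215 without low-dose replicate 1. The count of 21 lower became 12, 7 or 12 without DMSO replicate 1, 2 or 3, and 8, 8 or 10 without replicate 1, 2 or 3 of the low dose. The 3 rises became 1 without any one of the DMSO replicates or without low-dose replicate 2, 0 without low-dose replicate 1, and 5 without replicate 2 of 1 μM THZ531.

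**Figure D4:**
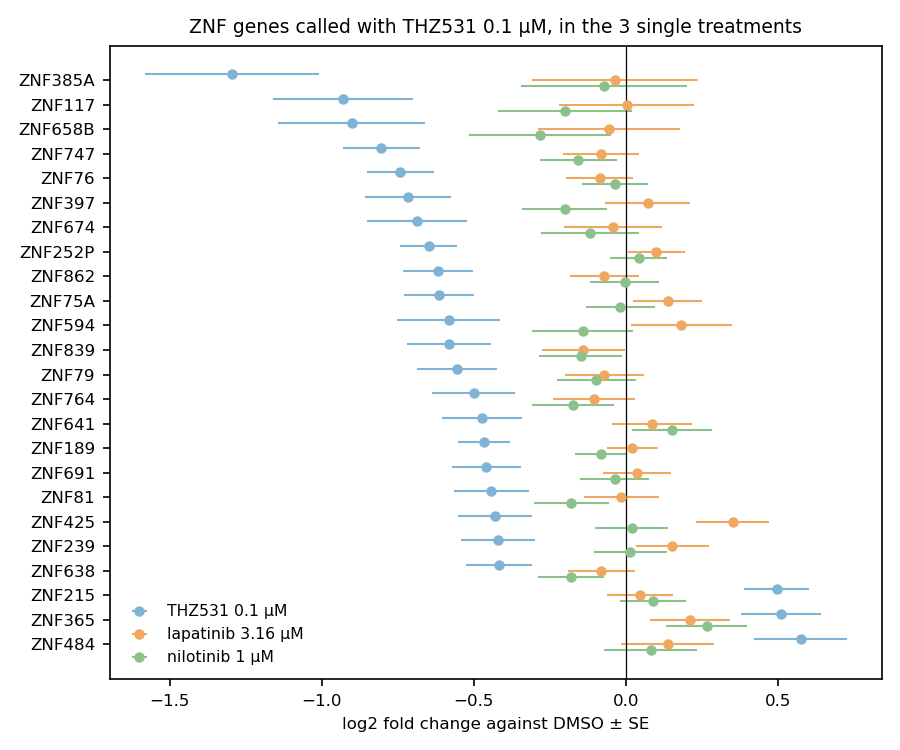
Log2 fold change against DMSO with its standard error (x axis) of the 24 members called with 0.1 μM THZ531, shown for 0.1 μM THZ531, lapatinib and nilotinib. The 21 lower members lie left of 0 and the 3 higher members right of 0 with 0.1 μM THZ531, and none of the 24 was called with lapatinib or nilotinib.

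Lapatinib alone called 0 of the 235 members in either direction by edgeR, where 0.0561% of all genes were lower and 0.256% higher. At an unadjusted p under 0.05, 3 members were lower and 6 higher, and DESeq2 also called 0. Nilotinib alone called 0, where 0.0998% and 0.243% of all genes were lower and higher, with 4 lower and 1 higher at an unadjusted p under 0.05 and 0 by DESeq2. The median log2 FC of the members was 0.00 and −0.06.

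Set against 1 μM THZ531, the combinations had some members lower and others higher. Beyond 1 on the log2 scale, the lapatinib combination had 5 members lower (2.13%) and 1 higher (0.426%). Of all genes 1.82% were lower and 1.32% higher, so the lower share was near that of all genes. The nilotinib combination had 8 lower (3.40%) and 1 higher (0.426%), beside 1.66% and 0.898%. Without the limit on fold change, 40 were lower (17.0%) and 47 higher (20.0%) with the lapatinib combination, beside 16.1% and 12.8% of all genes. With the nilotinib combination 41 were lower (17.4%) and 38 higher (16.2%), beside 13% and 11.2%. ZNF609 was lower than with 1 μM THZ531 by 2.20 ± 0.28 and 1.71 ± 0.27 on the log2 scale, and ZNF839 by 1.19 ± 0.18 and 1.18 ± 0.18. ZNF41 was lower by 0.98 ± 0.17 with the lapatinib combination and ZNF273, a KRAB member, by 1.06 ± 0.19 with the nilotinib combination. The other members lower by over 1, named after their values were seen, were ZNF518B, ZNF680 and ZNF239 with the lapatinib combination and ZNF396, ZNF204P, ZNF786, ZNF518B and ZNF595 with the nilotinib combination.

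Some members stood higher in a combination than with 1 μM THZ531. ZNF670, a KRAB member that overlaps a read-through gene with ZNF695, stood at 6.78, 6.27 and 6.18 CPM in DMSO, at 6.77, 6.38 and 6.48 CPM with the lapatinib combination, at 6.03, 6.61 and 7.69 CPM with the nilotinib combination and at 3.91, 2.48 and 3.74 CPM with 1 μM THZ531. It was higher than with 1 μM THZ531 by 0.95 ± 0.14 and 1.00 ± 0.14. ZNF263 and ZNF519 were higher by 0.96 ± 0.14 and 0.92 ± 0.16 with the lapatinib combination. ZNF652 was higher by 0.97 ± 0.16 with the nilotinib combination. ZNF462, a large zinc finger protein of heterochromatin, was higher by 0.92 ± 0.24, a call that was lost without nilotinib combination replicate 3 or 1 μM THZ531 replicate 2 (0.74 in each). The member beyond 1 with the lapatinib combination was ZNF852, at 0.690 against 0.341 CPM. Without replicate 2 of 1 μM THZ531, 8 members were lower than with 1 μM THZ531 by over 1 for the lapatinib combination, and none was higher for either.

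Between the combinations, 2 members were called. ZNF395 was lower with lapatinib, at 46.5, 44.7 and 44.6 CPM against 53.8, 50.8 and 54.9 CPM, and ZNF691 was higher, at 0.885, 0.853 and 0.958 CPM against 0.540, 0.562 and 0.539 CPM, beside 0.736% and 0.73% of all genes called lower and higher. The log2 differences were −0.23 ± 0.06 and 0.71 ± 0.14 (edgeR adjusted p = 0.0152 for the second), and the first lay at the threshold. ZNF395 lost its call when most single libraries were left out, and ZNF691 lost its call without replicate 3 of the lapatinib combination or any replicate of the nilotinib combination.

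The change with a combination exceeded the sum of its parts for most members. The interaction term, which is the combination less the inhibitor less 0.1 μM THZ531 plus DMSO on the log2 scale, was below −1 and called for 133 members with lapatinib and above 1 for 5, beside 18.3% and 6.7% of all genes. With nilotinib it was called for 134 and 4, beside 17.8% and 5.51%. Those above 1 were ZNF467, ZNF785, ZNF652, ZNF513 and ZNF503 with lapatinib and ZNF652, ZNF236, ZNF785 and ZNF462 with nilotinib, of which ZNF467, ZNF513 and ZNF462 were named after their values were seen. Medians were −1.30 and −1.32, against 0.03 over all genes tested in both. Among members of mean log2 CPM of at least 1, ZNF609 had the lowest values, −4.66 ± 0.36 and −4.03 ± 0.35, followed by ZNF839 at −3.59 ± 0.22 and −3.58 ± 0.22. The positive terms included ZNF652, at 1.17 ± 0.22 and 1.47 ± 0.22, and the KRAB member ZNF785, at 1.40 ± 0.34 and 1.14 ± 0.34, which overlaps ZNF688. ZNF785 stood at 2.65, 3.75 and 2.23 CPM in DMSO, 1.79, 1.86 and 2.11 CPM with 0.1 μM THZ531, 1.77, 3.23 and 3.17 CPM with lapatinib and 3.34, 4.87 and 6.23 CPM with the lapatinib combination, so its combination libraries overlapped DMSO.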

How the data were processed

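RNA of Hs578T cells was sequenced in unstranded polyA libraries as 100-bp paired-end reads. Per the labels and the submitters' processing notes, the authors aligned reads to GRCh38 with HISAT2 2.1.0 and counted them per NCBI gene with featureCounts. The deposited values are raw counts. The strand and pair settings and the annotation are not given in the sources used here. Whether the mates of a pair were counted singly is not stated, so counts were also halved.

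Genes passing edgeR's filterByExpr (minimum count 10) were scaled by TMM and tested with edgeR 4.0.16 (R 4.3.3), quasi-likelihood, with 1 mean per group over all 21 libraries and Benjamini-Hochberg adjustment over 16036 genes. CPM are counts-per-million after TMM scaling. The log2 CPM behind mean levels used a prior count of 2. SE was the log2 FC divided by the square root of F. Symbols came from RefSeq (27745 of 28395 identifiers matched), and exons, transcript lengths and translated KRAB and C2H2 patterns from GENCODE v44. The scripts were tested on simulated counts first.

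Named genes were the 6 largest falls and rises with each strong treatment among called members of mean log2 CPM of at least 1 whose libraries did not overlap DMSO, the 3 largest in each direction in the other comparisons, the 4 highest per kilobase, the 4 most abundant members within 0.25 of no change, and examples from lists of known roles. The members and lists were chosen with earlier results of these data known. Per the study, the samples came from 3 independent experiments, and the labels do not say which experiment a replicate number marks. Alternatives were 4 other scalings, 2 other filters, a replicate block, DESeq2 1.42.0, a fit of the compared groups alone, halved counts, members overlapping no gene, and leaving out each library.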

Additional observations from a re-analysis of the deposited data

Results flagged for a closer look

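The effect of 0.1 μM THZ531 was set against itself with and without lapatinib or nilotinib by the interaction term of the edgeR fit, and the values below are those in which the effects differed. With lapatinib the term was called beyond 1 on the log2 scale for 133 of the 235 tested members below and 5 above 0. Over all genes tested, 18.3% were below and 6.7% above by that rule. With nilotinib it was called for 134 below and 4 above, beside 17.8% and 5.51% of all genes. Among the named members, the lapatinib term was −4.66 for ZNF609, −3.59 for ZNF839, −3.42 for ZNF41, 1.40 for ZNF785, 1.17 for ZNF652 and 1.02 for ZNF503. The nilotinib term was −4.03 for ZNF609, −3.58 for ZNF839, −3.48 for ZNF200, 1.47 for ZNF652, 1.16 for ZNF236 and 1.14 for ZNF785. Under scaling by mitochondrial mRNAs the ZNF503 term was 0.45 and not called. With that scaling no member had a called lapatinib term above 1, and 1 member had a called nilotinib term above 1.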

How the results depend on the processing

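The falls with the strong treatments and both interactions moved by less than 1.5 times under every alternative except members overlapping no other gene, which holds fewer genes by construction and gave 65, 65 and 69 lower beyond 1 log2 with the lapatinib combination, the nilotinib combination and 1 μM THZ531, and 67 and 66 for the lapatinib and nilotinib interactions. Leaving out 1 library gave 131 to 140, 137 to 146, 132 to 150, 131 to 141 and 128 to 137. The small counts of rises moved more. For the lapatinib combination they were 8 with upper-quartile scaling, 1 with library size, 1 with mitochondrial scaling, 2 with at least 10 counts in every library, 1 without overlapping genes and 3 to 6 without 1 library. For the nilotinib combination they were 5 with DESeq2 size factors, 6, 1 and 0 with those 3 scalings, 0 without overlapping genes and 2 to 6 without 1 library (6 without DMSO replicate 2). For 1 μM THZ531 they were 1 with library size, mitochondrial scaling, no filter or at least 10 counts, 0 without overlapping genes and 1 to 2 without 1 library (1 without replicate 1 or 2 of that group). The positive interactions were 9, 2 and 0 (lapatinib: upper quartile, library size, mitochondrial) and 1 and 1 (nilotinib: library size, mitochondrial), 0 in both without overlapping genes, and 3 to 8 and 3 to 5 without 1 library (lapatinib: 8 without lapatinib combination replicate 1, 3 without its replicate 2 or lapatinib replicate 1).

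Against 1 μM THZ531, the lapatinib combination had 8, 9 and 12 lower by those 3 scalings, 3 without overlapping genes and 5 to 8 without 1 library, and 0 higher by each scaling or with only the groups compared, 0 to 5 without 1 library (3, 0 and 0 without lapatinib combination replicates 1, 2 and 3, and 4, 0 and 5 without replicates 1, 2 and 3 of 1 μM THZ531). The nilotinib combination had 5 lower with at least 10 counts, 3 with only the groups compared, 5 without overlapping genes and 8 to 11 without 1 library, and 0 higher by each scaling, with at least 10 counts or without overlapping genes, 2 with only the groups compared and 0 to 6 without 1 library (4 and 0 without nilotinib combination replicates 1 and 3, and 6, 0 and 4 without replicates 1, 2 and 3 of 1 μM THZ531). With 0.1 μM THZ531, 9 were lower with mitochondrial scaling, 33 with only the groups compared, 10 without overlapping genes and 7 to 22 without 1 library, and 0, 7 and 1 were higher, with 5 by DESeq2 and 0 to 5 without 1 library. Between the combinations, 0 were lower with DESeq2 size factors, upper-quartile scaling or only the groups compared, 2 with library size, DESeq2 or the replicate block, and 0 to 2 without 1 library, and 0 were higher with mitochondrial scaling or only the groups compared, 2 with DESeq2 and 0 to 3 without 1 library. Lapatinib and nilotinib alone called 0 members under each of these. The cause of these moves was not tested.

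Of 64 values of members named for a called change (those named for their level or for staying near 0, and the examples from lists of roles, are not among them), set against 1983 alternative values, 1913 kept their direction and call, 70 kept their direction and lost the call (47 without 1 library and 17 with mitochondrial scaling) and 0 reversed. The deviations of samples with the same replicate number had a mean correlation of 0.152 over 63 pairs, from −0.830 to 0.892, against −0.069 over 126 pairs of other numbers, across 8794 genes. Since not every pair was positively correlated and 8 of 21 libraries correlated best with their own number, the numbers were not taken as pairs. The replicate block moved no count by over 1.5 times apart from the one given above. At these depths, members near 0.1 CPM have about 10 counts per library, which limits what can be seen in them.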
